A study of Drosophila melanogaster with 2 samples.

Results

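Occupancy by a tagged protein was described at 10 genes of Notch signalling in the fly embryo: the receptor gene N, the ligand gene Dl, the gene of the DNA-binding factor Su(H), and 7 genes of the Enhancer of split complex that encode basic helix-loop-helix (bHLH) repressors, namely E(spl)mdelta-HLH, E(spl)mgamma-HLH, E(spl)mbeta-HLH, E(spl)m3-HLH, E(spl)m5-HLH, E(spl)m7-HLH and E(spl)m8-HLH. They were taken by symbol, with earlier results of these data already known, and are 10 of the 13945 protein-coding genes annotated on the chromosome arms. Chromatin immunoprecipitation followed by sequencing (ChIP-seq) had mapped the protein of the fly gene CG10979 with green fluorescent protein at its C terminus, expressed from a stable transgene, with an antibody against that tag. The material was whole Drosophila melanogaster embryos of both sexes, aged 0 to 14 h, in 1 group of 2 biological replicates numbered 2 and 3, both from the same tagged line. There was no second condition, and no library of untagged embryos was analysed here. Whole embryos hold many cell types, so that strong occupancy in few cells and weak occupancy in many cannot be told apart.

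Notch signalling passes between neighbouring cells. The ligand Delta on one cell binds the receptor Notch on the next, the receptor is cleaved, and its intracellular part joins Su(H) in the nucleus, where the complex switches on the Enhancer of split genes. Their bHLH products recruit the corepressor Groucho and repress proneural genes, which in the embryo limits how many cells of a cluster become neural precursors.

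The data were 4 peak lists on build dm6: a relaxed list of 30000 peaks for each replicate, 1 for the pool of both, and a shorter one of 7630 peaks. The last is the authors' IDR list (irreproducible discovery rate), named for a method that weighs how ranks hold between replicates. Its lowest signal value and the highest among the 22370 pooled peaks outside it were both 189.9. It thus held the strongest pooled peaks, and being in it does not show that a single peak was found in both replicates. Of its 7630 peaks 7351 had a summit within 100 bp in both. Each peak has a summit, the base of its highest signal, and a signal value given by the authors' peak caller, which ranks peaks within a list. An IDR peak had the same signal value and rank in the pooled list, whereas the values of the replicate lists are on other scales. Rank 1 is the strongest peak of a list. The IDR list had a median signal value of 373.3 and ended at 189.9. No read counts come with the peaks, so the sequencing depth is unknown. Every member has 1 annotated start, and a summit was counted at a start when it lay within 500 bp of it.

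Of the 10 genes, 6 had an IDR summit at the start, against 25.2% of all protein-coding genes. These were N, Dl and the mdelta, mbeta, m3 and m7 genes of the complex. At 3 of them, the mdelta, m3 and m7 genes, the peak was among the 1000 strongest of the IDR list, which held for 4.09% of all protein-coding genes. The relaxed pooled list had a summit at the start of all 10 genes, against 54.1% of all protein-coding genes, and so did the relaxed lists of replicate 2 (54.0% of all genes) and replicate 3 (54.3%). Among as many of the strongest peaks of 1 replicate as the IDR list holds, 5 of the 10 had a summit at the start in replicate 2 (24.4% of all genes) and 6 in replicate 3 (26.3%). Su(H), E(spl)mgamma-HLH, E(spl)m5-HLH and E(spl)m8-HLH therefore had peaks at their starts that were too weak for the IDR list. The excess depends on the window. With 200 bp the count was 2, against 18.3% of all genes, with 1000 bp it was 6, against 29.4%, and with peaks that overlap the start itself it was 1, against 16.5%. Among the stronger 3815 IDR peaks it was 3, against 13.1%. No test was made on these counts, since the members were not chosen independently of the data and neighbours in the complex share peaks.

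The strongest peak at a member's start was that of E(spl)m7-HLH (FBgn0002633, chromosome 3R at 26037038 to 26038019, plus strand). Its summit, at 26036660, lay between genes at −378 bp. Its signal value was 3691, rank 74 in the IDR list. In replicate 2 the signal value was 1948 (rank 79) and in replicate 3 it was 1751 (rank 71), with summits 23 bp apart.

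E(spl)m3-HLH (FBgn0002609, 3R at 26021823 to 26023127, plus strand) had its summit at −412 bp, with a signal value of 2634 and rank 180. The replicates gave 1413 (rank 192) and 1232 (rank 171). E(spl)mdelta-HLH (FBgn0002734, 3R at 25997621 to 25998633, plus strand) had its summit at −360 bp, with 1536 and rank 582, and the replicates gave 879.0 (rank 548) and 683.7 (rank 575). The order m7, m3, mdelta was the same in both replicates. The 3 summits lay far upstream. The median over the 3520 genes with an IDR summit at a start was −136 bp. Of them, 6.16% had their strongest one between −450 and −350 bp, bounds that were set after these positions were seen. For the 570 genes with a peak among the 1000 strongest at a start, the median was −176 bp and this share 6.84%.

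Not all of these peaks belong to 1 start only. The summit upstream of E(spl)mdelta-HLH lay nearer, at 265 bp, to the start of CG43116 on the opposite strand, and the one upstream of E(spl)m3-HLH lay 335 bp from the start of lncRNA:CR43644, also on the opposite strand. The E(spl)m7-HLH peak had no other annotated start within 500 bp.

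The sequence under these summits is shown because its base composition differed from that of the sequence beside it, as it did at most IDR summits. Each line gives the 101 bp centred on the summit, plus strand of dm6, from the RefSeq genome, with runs of 6 or more A and T bases in capitals.
E(spl)m7-HLH, chr3R:26036610-26036710: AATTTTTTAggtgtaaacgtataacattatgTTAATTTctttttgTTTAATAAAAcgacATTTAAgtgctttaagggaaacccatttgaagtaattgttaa
E(spl)m3-HLH, chr3R:26021361-26021461: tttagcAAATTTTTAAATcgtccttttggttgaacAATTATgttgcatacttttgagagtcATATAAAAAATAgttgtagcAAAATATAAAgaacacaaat
E(spl)mdelta-HLH, chr3R:25997211-25997311: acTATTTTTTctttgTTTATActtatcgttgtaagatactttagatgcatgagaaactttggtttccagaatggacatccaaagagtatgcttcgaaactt

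The GC content of the 3 windows was 23.8% at E(spl)m7-HLH, 24.8% at E(spl)m3-HLH and 31.7% at E(spl)mdelta-HLH. In flanking windows, whose centres lay 300 bp away on both sides, it was 53.5%, 56.9% and 57.4%. Over all IDR peaks the mean GC content was 31.8%, and 6318 of the 7630 had a lower value than their flanks. The A and T runs in capitals covered 32, 40 and 14 of the 101 bases, against a median of 29 over all IDR summits and 9 over all flanking windows.

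E(spl)mbeta-HLH (FBgn0002733, 3R at 26005046 to 26006023, minus strand) had the weakest IDR peak at a member's start. Its summit lay at −106 bp with a signal value of 213.3 and rank 6796, close above the lowest IDR value. Replicate 3 had a summit at −114 bp with 125.8 (rank 5659), whereas the strongest summit of replicate 2 at this start lay at 17 bp inside the gene with 90.8 (rank 8491), so that the replicates did not match within 100 bp here. The window at this summit had a GC content of 59.4%, the highest of the IDR summits near the 10 genes, and no run of 6 A or T bases.
E(spl)mbeta-HLH, chr3R:26006079-26006179: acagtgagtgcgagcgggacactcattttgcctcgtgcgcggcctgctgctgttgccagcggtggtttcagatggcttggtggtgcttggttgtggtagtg

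The remaining bHLH genes had only weak peaks at their starts. E(spl)mgamma-HLH (FBgn0002735) had a pooled summit at 63 bp with a signal value of 156.3 and rank 9210, the highest of the 4 starts without an IDR summit and below the IDR limit, with 62.6 in replicate 2 and 92.5 in replicate 3. E(spl)m8-HLH (FBgn0000591) had one at 242 bp with 92.1 (rank 14701), and 29.8 and 81.0 in the replicates. E(spl)m5-HLH (FBgn0002631) had one at 90 bp with 47.2 (rank 25162), and 32.8 and 26.2 in the replicates. All 3 summits lay inside the transcribed region, whereas all 6 IDR summits at member starts lay upstream. An upstream position was also usual over the 3520 genes with an IDR summit at a start. The median was −136 bp and the 75th percentile −51 bp.

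**Figure D1:**
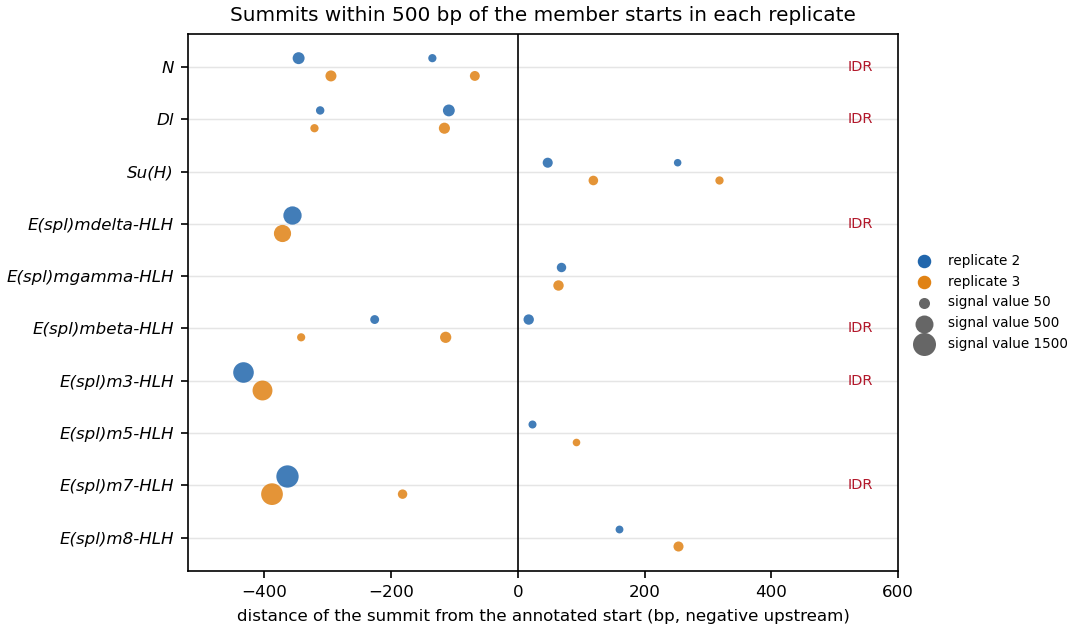
Distance of each summit from the annotated start (x axis, bp, negative upstream) for the 10 genes (rows), in the relaxed list of replicate 2 (blue) and of replicate 3 (orange), with a larger circle for a higher signal value. "IDR" at the right marks the 6 genes with an IDR summit within 500 bp of the start, and the large circles at the mdelta, m3 and m7 genes lie between −433 and −357 bp in both replicates.

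The bHLH genes also differed in how low the GC content fell around their starts. In the windows of 101 bp centred within 500 bp of the start, the lowest GC content was 15.8% at E(spl)mdelta-HLH and 18.8% at both E(spl)m3-HLH and E(spl)m7-HLH, 49 to 77 bp from the respective summit. This measure was chosen after the peaks were seen. At E(spl)m5-HLH and E(spl)m8-HLH it was 32.7%, at E(spl)mbeta-HLH 36.6% and at E(spl)mgamma-HLH 38.6%, so that these 4 values did not overlap with the 3 others. Of all protein-coding genes, 13.8% had a value at or below that of E(spl)mdelta-HLH and 30.8% at or below that of E(spl)m3-HLH and E(spl)m7-HLH. For the 4 this share was 95.2 to 99.1%. The split did not follow the IDR list, since E(spl)mbeta-HLH, among the 4, had an IDR summit. The median over all 13945 genes was 21.8%, with 20.8% for genes with an IDR summit at the outermost start and 22.8% for those without. Outside the complex low values and strong peaks did not go together, since Su(H) had 20.8% and no IDR summit, while Dl with 15.8% and N with 23.8% each had a weak one. These values are a description of 10 genes without a test.

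**Figure D2:**
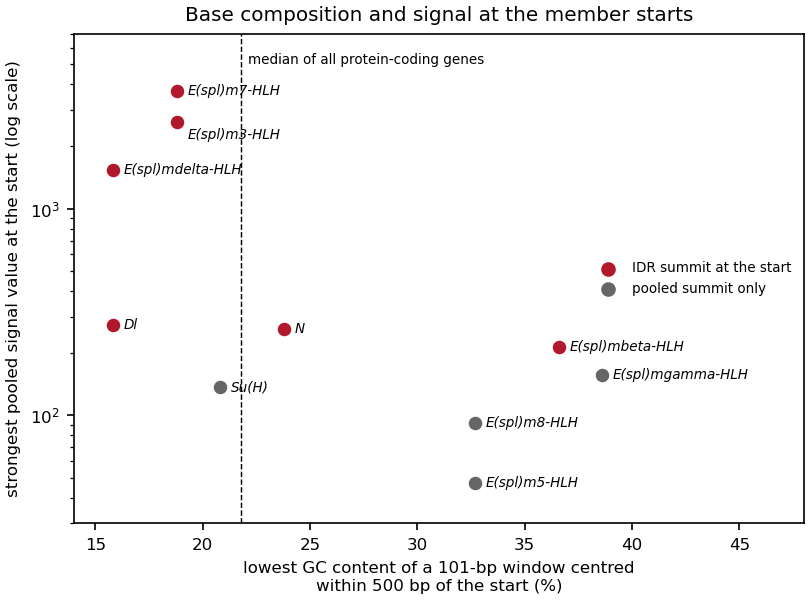
Lowest GC content of a 101-bp window within 500 bp of the start (x axis, %) against the strongest pooled signal value at that start (y axis, log scale) for each of the 10 genes, in red with and in grey without an IDR summit at the start. The dashed line is the median GC of all protein-coding genes, 21.8%, and the mdelta, m3 and m7 genes lie to its left at signal values of 1536 to 3691, whereas the other 4 bHLH genes lie at 32.7% or more.

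The complex as a whole was rich in peaks. From E(spl)mdelta-HLH to gro, the gene of the corepressor Groucho, it spans 52.3 kb with 13 genes of the complex and several annotated non-coding RNA genes, and with 5 kb added on each side 62.3 kb. This stretch held 13 IDR summits, or 2.09 per 10 kb against 0.570 over the chromosome arms (3.66-fold). Of all windows of that length, stepped by 1 kb and thus overlapping, 2.22% held as many or more, and their median was 3. The relaxed lists gave 50 summits in the pool, 53 in replicate 2 and 60 in replicate 3. Of the 13 IDR summits 7 were among the 1000 strongest, which make up 13.1% of the IDR list, and their median signal value was 1409.

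Of the 13 IDR summits 11 were intergenic and the other 2 lay in introns, of CG43116 and gro. The intergenic share was 84.6%, against 40.2% of all IDR summits, while 47.0% of the bases of this stretch and 30.5% of those of the chromosome arms lie outside annotated genes. At the E(spl)mdelta-HLH end, a second strong peak with a signal value of 1452 (864.1 in replicate 2 and 602.1 in replicate 3) lay 0.688 kb beyond the one at the start. A gap of 8.87 kb followed that took in the starts of E(spl)mdelta-HLH, E(spl)mgamma-HLH and E(spl)mbeta-HLH.

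The middle of the complex held several strong peaks. Between E(spl)mbeta-HLH and E(spl)m3-HLH there were strong summits at 1409 (770.9 and 649.2 in replicates 2 and 3), 958.8 (555.4 and 403.3) and 779.3 (435.1 and 352.9), the last at −278 bp from the start of E(spl)m1, a gene of a Kazal-type protein. A weak one of 230.2 stood among them, with 77.4 in replicate 2 and 140.3 in replicate 3. Farther on came 2375 (1228 and 1152) and 965.4 (546.9 and 420.3), and then the start peak of E(spl)m3-HLH. The peak of 2375, the third strongest of the complex, lay at −527 bp from the start of E(spl)m2-BFM, just outside the window of 500 bp. Its sequence is shown because it had the highest content of A and T runs of those printed (59 of 101 bases, GC content 19.8%).
Peak between E(spl)m2-BFM and E(spl)m3-HLH, chr3R:26017947-26018047: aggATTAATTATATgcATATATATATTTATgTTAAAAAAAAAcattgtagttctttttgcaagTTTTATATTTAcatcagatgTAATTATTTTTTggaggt

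Beyond E(spl)m3-HLH the complex was empty of IDR summits for 15.2 kb, a stretch that holds the starts of E(spl)m4-BFM, E(spl)m5-HLH and E(spl)m6-BFM. It ended at the peak of E(spl)m7-HLH. None was found at the start of E(spl)m8-HLH, whose nearest IDR summits were those of gro, with signal values of 309.7 (158.6 and 160.4) and 1642 (884.1 and 755.6). Over these 13 genes, 6 had an IDR summit at a start and 12 had a pooled one, against 25.2% and 54.1% of all protein-coding genes. The 7 bHLH genes, already counted above, made up 4 of the 6 and 7 of the 12.

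**Figure D3:**
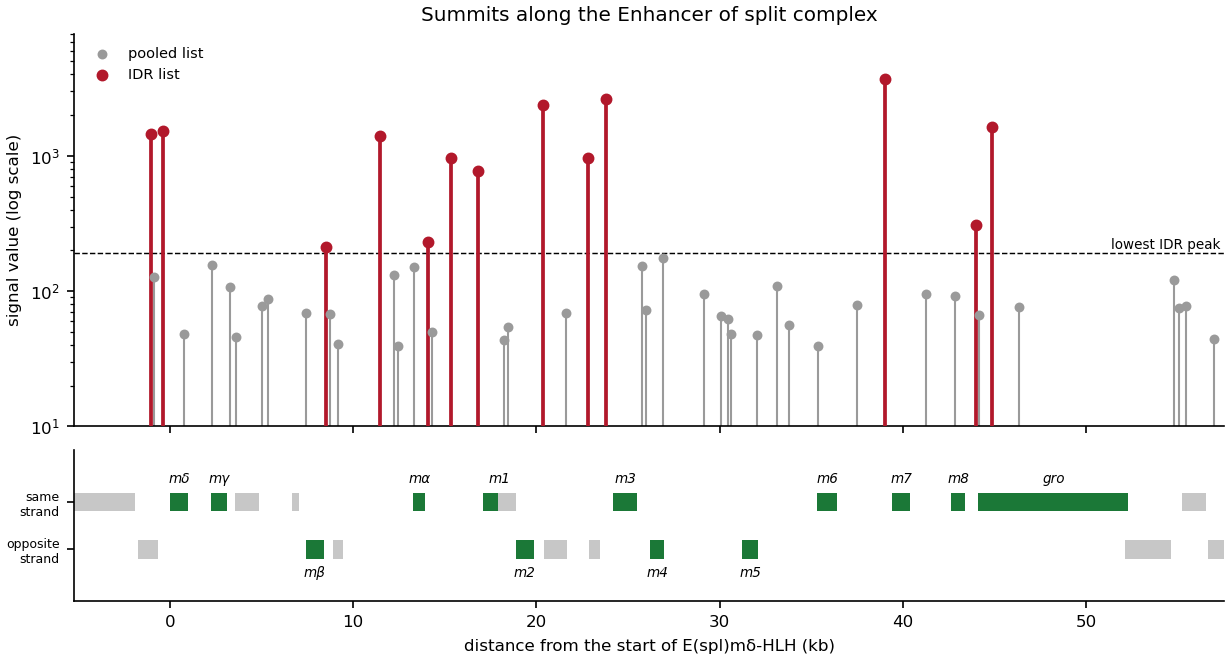
Signal value (y axis, log scale) of every pooled summit (grey) and IDR summit (red) against distance from the start of E(spl)mdelta-HLH (x axis, kb), over the Enhancer of split complex, with its 13 genes in green and other annotated genes in grey by strand below. The vertical lines only tie a point to its position, the dashed line marks the lowest IDR peak at 189.9, and no red point stands in the 15.2 kb between E(spl)m3-HLH and E(spl)m7-HLH.

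The receptor gene N (FBgn0004647, chromosome X at 3134870 to 3172221, plus strand, 37.4 kb) had its strongest peak far from the start. This summit lay in an intron 27.7 kb downstream of the start, at 3162522, with a signal value of 2322 and rank 222. The replicates gave 1326 (rank 209) and 1003 (rank 251), with summits 18 bp apart. The peak at the start of N was weaker by far, with its summit at −324 bp, a signal value of 262.7 (rank 5533), and 160.7 and 115.9 in replicates 2 and 3. It also lay 14 bp past the end of the neighbouring gene kirre, an adhesion protein gene. Another intronic summit, 8922 bp downstream of the start, had 219.1, with 149.8 in replicate 2 and 71.6 in replicate 3.

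The intronic summit of N had a GC content of 23.8%, as at E(spl)m7-HLH, against 46.0% in the flanks. A and T runs covered 45 of its 101 bases.
N intron, chrX:3162472-3162572: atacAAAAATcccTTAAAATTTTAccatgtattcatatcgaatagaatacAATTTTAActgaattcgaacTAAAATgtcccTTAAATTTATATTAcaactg

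The ligand gene Dl (FBgn0000463, named Delta in the annotation, 3R at 19302731 to 19326217, minus strand, 23.5 kb) had 3 IDR summits of low to middling strength. The summit at −109 bp had a signal value of 272.4 (rank 5345), with 156.1 in replicate 2 and 120.3 in replicate 3. Its start peak and that of N could not be ordered, since Dl was lower than N in replicate 2 and higher in replicate 3. A summit in an intron 4674 bp downstream of the start had 259.6 (103.1 and 153.6), and one beyond the 3′ end of the gene had 395.1 (228.5 and 157.6). The window at the start had a GC content of 44.6%, above its flanks at 35.6%, and is shown for that reason. It does not stand for the weak peaks, since 14 of the 16 IDR summits near the 10 genes had a GC content below their flanks. Weak ones were among them, such as the intronic summit of Dl (18.8% against 42.6%) and the start summit of N (28.7% against 45.0%).
Dl, chr3R:19326276-19326376: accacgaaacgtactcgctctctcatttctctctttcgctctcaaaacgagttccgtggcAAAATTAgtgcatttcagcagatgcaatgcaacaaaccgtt

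Su(H) (FBgn0004837, chromosome 2L at 15039488 to 15043334, plus strand) had no IDR summit within 5 kb. The pooled summit at its start lay at 108 bp with a signal value of 136.5 (rank 10492), and the replicates gave 80.6 and 66.7. The nearest IDR summit lay 17375 bp downstream of the start, with 1247.

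**Figure D4:**
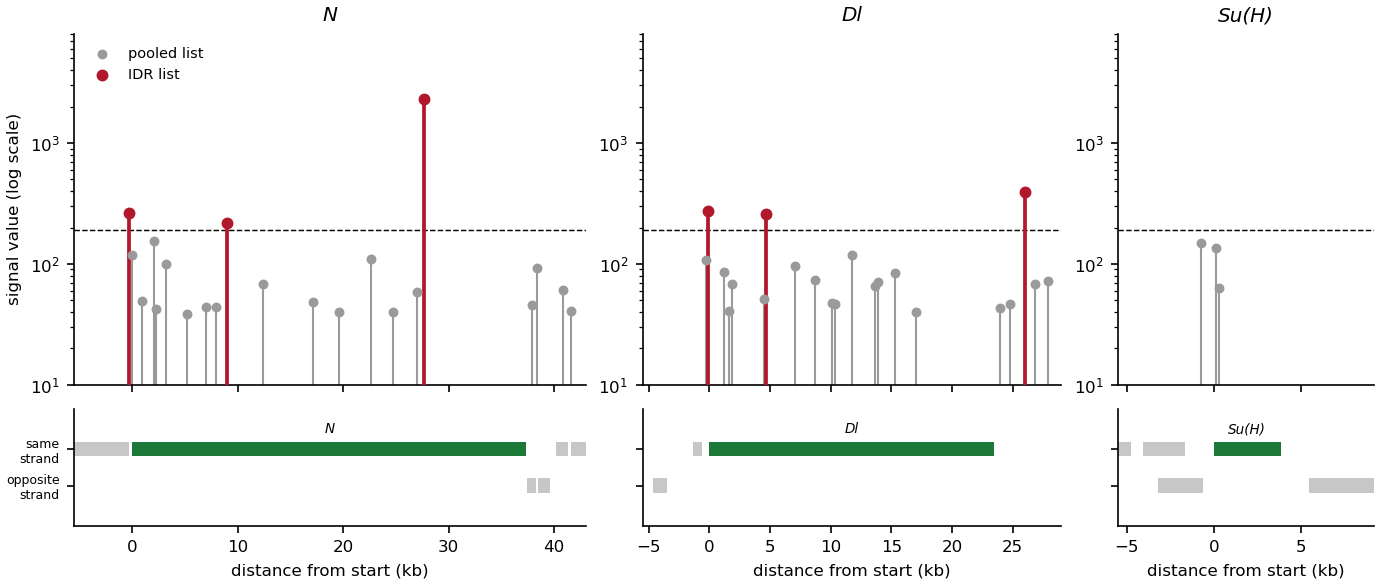
Signal value (y axis, log scale) of pooled summits (grey) and IDR summits (red) against distance from the start in the direction of transcription (x axis, kb) at N, Dl and Su(H), each extended by 5 kb, with the named gene in green and other genes in grey below. The dashed line is the lowest IDR value of 189.9, the vertical lines only tie points to positions, and the intronic summit of N at 2322 is the only one above 1000 at these 3 genes.

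Within the gene spans extended by 5 kb, 8 of the 10 genes had an IDR summit, against 58.1% of all protein-coding genes, and Su(H) and E(spl)m5-HLH had none. The share moves with gene length. For protein-coding genes under 1.5 kb, as all 7 bHLH genes are, it was 44.9%, and 6 of the 7 had one, but the spans of neighbours overlap and share peaks. For genes of 20 to 50 kb, as N and Dl are, it was 73.4%, and 43.3% had 3 or more, as both of them did. All spans together held 16 different IDR summits, 11 intergenic and 5 in introns, of which 8 were among the 1000 strongest.

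The replicates were compared peak by peak. Of the 16 IDR summits 15 had a counterpart within 100 bp in both replicates, with a median distance between the replicates' summits of 16 bp and at most 59 bp. The log2 ratio of signal values, replicate 2 over replicate 3, had a median of 0.36 and ran from −0.58 to 1.07. Over all 7351 IDR peaks matched in both it had a median of 0.28 with an SD of 0.44 across peaks, and 13 of the 15 lay within 1 SD of that median. The 2 others were the weak intronic peaks of N (1.07) and of Dl (−0.58). Another 3 IDR summits of the complex lay in no member's span and were not among the 16. These included the weak peak of 230.2, whose log2 ratio of −0.86 was also beyond 1 SD. The replicates are 2 libraries of 1 line, and these values describe them only.

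**Figure D5:**
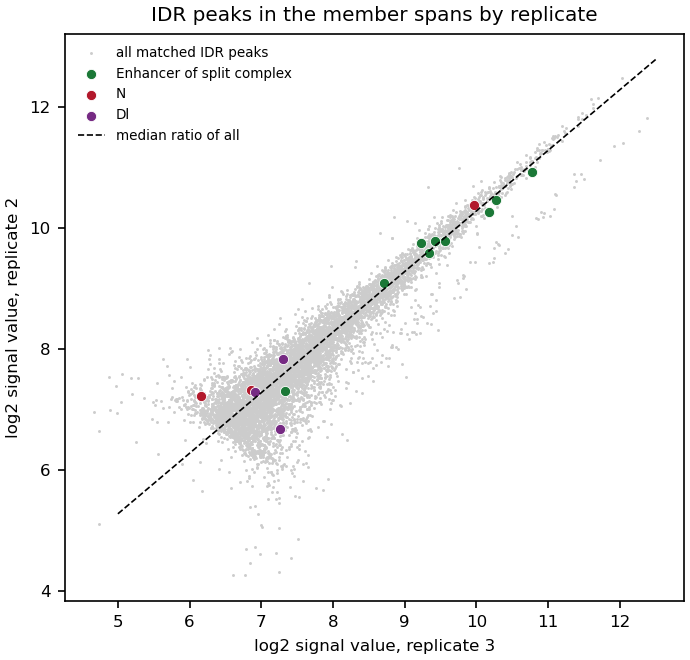
Log2 signal value in replicate 3 (x axis) against replicate 2 (y axis) for all matched IDR peaks (grey) and for the 15 matched ones in the spans of the 10 genes (complex in green, N in red, Dl in purple). The dashed line is the median ratio of all peaks, 0.28 on the log2 scale, and the weak peaks of N and Dl at 1.07 and −0.58 lie farthest from it among the 15.

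The sites that Su(H) is known to bind were looked for, since the Enhancer of split genes are its targets. The letters CGTGAGAA, CGTGGGAA, TGTGAGAA and TGTGGGAA were searched on both strands. From 1000 bp before to 100 bp after the start, 6 of the 10 genes held at least 1 match and 4 held 2 or more, against 11.0% and 0.710% of all protein-coding genes. The 4 were E(spl)mgamma-HLH and E(spl)m5-HLH with 4 matches each, and E(spl)m7-HLH and E(spl)m8-HLH with 3 each. None of the 16 IDR summits held a match within 50 bp, which at 0.642% of all IDR summits and 1.12% of flanks says little about so few windows. Among the matches at the starts, the closest to an IDR summit lay 182 bp from it, at E(spl)mbeta-HLH. Elsewhere 1 lay 95 bp from the IDR summit with a signal value of 965.4 upstream of E(spl)m3-HLH.

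Each of the 4 genes with 2 or more matches had 2 of them in opposite orientation 25 or 30 bp apart. At E(spl)m7-HLH this pair lay at −665 and −640 bp, 262 bp upstream of the IDR summit, so that the summit stood between the pair and the start. The other 3 genes had no IDR summit at the start. Their pairs lay at −220 and −195 bp at E(spl)m8-HLH, at −290 and −265 bp at E(spl)mgamma-HLH and at −895 and −865 bp at E(spl)m5-HLH, so that their distance from the start showed no common order with the presence of a peak. The 3 stretches with the spacing of 25 bp are shown in the direction of the gene, with the matches in capitals.
E(spl)m7-HLH pair, chr3R:26036363-26036408: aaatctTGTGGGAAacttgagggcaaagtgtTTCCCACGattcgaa
E(spl)m8-HLH pair, chr3R:26040010-26040055: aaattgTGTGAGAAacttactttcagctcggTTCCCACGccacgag
E(spl)mgamma-HLH pair, chr3R:25999551-25999596: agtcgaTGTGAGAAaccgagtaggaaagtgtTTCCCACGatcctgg

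Other short words were also counted in the 16 summit windows, on both strands. The TATA box TATAAA was in 5 of them (31.2%), against 26.1% of all IDR summits, and the E box CANNTG, a type of site bound by bHLH proteins, was in 8, against 32.4%. The N box CACNAG, a site of Enhancer of split repressors, was in 1, against 8.62%, and the proneural E box GCAGNTG, which is also an E box, was in 1, against 3.18%. The GAGA word GAGAG was in 4, against 8.07%, and the initiator word TCAGT was in 2, against 16.0%. The CTCF core variant AGATGGC was in 2, namely the E(spl)mbeta-HLH peak and the one in the intron of CG43116, against 2.06% of all IDR summits. The DREF word TATCGATA was in none of them, against 1.31%. The word AGATAA, typical of zinc fingers of the pannier and serpent kind, was also absent, against 9.12%. The same held for CAGGTAG, bound by Zelda, against 0.393%. Over the 16 windows the GC content was 30.7% ± 10.1 (SD over peaks), a mean of −18.0 points relative to the flanks, against 31.8% ± 9.51 and −12.9 points over all IDR peaks.

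Other genes of the pathway were taken from a list of 41 in 9 roles, drawn up by function. Of these 13 had an IDR summit at a start (31.7%), near the 25.2% of all protein-coding genes. The gene with the strongest peak was numb, an inhibitor of Notch in asymmetric divisions, with a signal value of 3123 at −254 bp (1724 in replicate 2 and 1408 in replicate 3).

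Among genes that act on the ligand, neur, which encodes a ubiquitin ligase that drives Delta endocytosis, had 1002 at −243 bp (529.0 and 470.3), and mib1, another such ligase gene, had 234.8 (103.1 and 140.6). The second ligand gene, Ser, had only a pooled one, with 83.8. Of the genes for sugar modification of the receptor, rumi had 860.7 (463.1 and 400.1) and O-fut1 had 388.7 (223.1 and 167.8). Both summits also lay within 500 bp of starts of other genes, of CG7029 and Usp12-46 for rumi and of CysRS-m for O-fut1.

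Of the 5 genes for receptor cleavage, all had a pooled summit at a start and 3 had an IDR one, against 54.1% and 25.2% of all protein-coding genes. Over so few genes these counts are no more than a description. The γ-secretase subunit gene aph-1 had 1411 at −417 bp (818.9 and 581.4), shared with Snx21, and pen-2 had 206.3 (119.7 and 99.5), shared with Ote. The metalloprotease gene kuz had 214.6 (119.0 and 96.0), whereas Psn and nct had only pooled summits, with 153.7 and 145.8. Among nuclear partners, mam, the gene of the coactivator Mastermind, had 517.5 (269.7 and 267.8) and gro had 1642, while H, the gene of the corepressor Hairless, and CtBP had only pooled ones, with 73.8 and 134.3. The ubiquitin ligase gene Nedd4 had 287.5 (162.2 and 129.9).

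None of the 8 Bearded family genes, which encode inhibitors of Neuralized, had an IDR summit at its start, although 6 had a pooled one. Against 25.2% and 54.1% of all genes, these counts over 8 genes are no more than a description. Within the spans extended by 5 kb, 7 of the 8 had an IDR summit, against 58.1% of all genes and 44.9% of those under 1.5 kb. The 4 of the 8 that lie in the complex are that short and share its peaks. Of the proneural genes and their partners 1 of 7 had an IDR summit at a start, against 25.2% of all genes. It was da, which encodes the common bHLH partner, with 294.6 (215.5 and 77.7). The genes ac, sc, l(1)sc, ase, ato and emc had no IDR summit at a start. Among other genes of the Hairy and Enhancer of split type, 1 of 5 had one at a start, against the same 25.2%. It was h, a pair-rule gene, with 300.5 and a match within 100 bp in replicate 3 (197.6) but not in replicate 2. These counts too are over few genes and only describe them.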

How the data were processed

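The authors deposited 4 narrowPeak lists (dm6). Per the text deposited with the files, each replicate was called on its own alignment and the pooled list on both, in each case with the same control file. The IDR list was made from those 3. The sources used here do not name the caller or the aligner. Signal values are the authors' score for each peak. It is used only to rank and describe peaks within a list. Per the labels, chromatin was sonicated, with a size range of 200 to 800 bp. The relaxed lists hold exactly 30000 peaks each, and weaker ones may be missing.

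Genes and starts came from Ensembl release 115 (BDGP6), and sequence from the RefSeq Release 6 genome, on the same coordinates as dm6. All members and the 41 pathway genes were found. Dl, E(spl)m1, nct, h and Her stood under a newer symbol, for which RefSeq lists the older one as a synonym. Coordinates count from 1. Replicate summits were matched to the nearest one within 100 bp. Windows reached 50 bp to either side of a summit, and flanks were centred 300 bp away. Named were all members, the genes of the complex, and the pathway genes with an IDR summit at a start. Members and lists were chosen with earlier results of these data known, so no test was made. The rules were tested on simulated summits. Python 3.11.15, numpy 2.4.6, pandas 2.3.3 and matplotlib 3.10.9 were used.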

Additional observations from a re-analysis of the deposited data

How the results depend on the processing

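The count of 6 members with an IDR summit at the start was 2 (Dl and E(spl)mbeta-HLH) with a window of 200 bp (18.3% of all genes), 1 (Dl) when the peak itself had to overlap the start (16.5%), 3 among the 3815 strongest IDR peaks (13.1%) and 10 in the pooled list (54.1%). Under the first 2 of these the members' share was near or below that of all genes. From 1 replicate alone it was 5 to 6, with E(spl)mbeta-HLH lost in replicate 2. The 13 pathway genes became 20 with a window of 1000 bp, 7 among the strongest IDR peaks and 37 in the pooled list, and were 13 in each replicate alone. With the words searched within 150 bp of the summit, 1 of the 16 summits held a Su(H) match instead of 0. From 1 replicate alone, 8 to 10 members had a summit in the extended span and the complex held 11 to 14. The other alternatives tried kept counts within 1.5 times. No paired analysis was possible because there was 1 group. Since the sequencing depth is unknown, a start without an IDR summit was not shown to be free of the protein.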
